A study of Mus musculus with 4 samples.

Results

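The cells described here are T cells of mouse small intestinal adenomas in which transcripts of at least 1 of the helper or regulatory T cell genes Cd4, Il7r, Foxp3 and Icos were counted. They were chosen by their own counts of unique molecular identifiers (UMIs, tags that mark single captured mRNA molecules). A barcode counted as a cell with at least 1000 UMIs, at least 200 genes and at most 20% of its UMIs from mitochondrial genes. A cell was a member when it had a UMI of Cd3d, Cd3e or Cd3g, at least 1 UMI in the sum of Cd4, Il7r, Foxp3 and Icos, and no UMI of Gzma, Gzmb, Cd8a, C1qa, C1qb or Cd79a, with less than 0.2% of its UMIs from Epcam, Krt8 and Krt19. Of the 12349 cells kept, 126 met the rule, which made up 44 of 2797 cells in the library labelled ApcMin replicate 1, 21 of 2959 in VApcMinL replicate 1, 16 of 2145 in ApcMin replicate 2 and 45 of 4448 in VApcMinL replicate 2. Values for the 4 libraries follow in this order throughout.

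The libraries came from 3′ single-cell RNA sequencing of whole, unsorted adenomas, with 3 to 10 tumors dissociated together for a library. ApcMin mice (genotype ApcMin/+ with Lef1 +/+) have 1 mutant allele of the tumor suppressor gene Apc, and VApcMinL mice carry ApcMin/+ with Lef1 fl/fl and Villin-Cre. All were C57BL/6 mice of 11 weeks, labelled male, with 2 libraries for each genotype. Villin-Cre is constitutive and acts in the intestinal epithelium, so T cells are not among the cells it is designed to act in, and the genotype comparison is between T cells of tumors whose epithelium does or does not carry the deletion. Replicate 1 of each genotype was made with reagent kit 2 and replicate 2 with kit 3, so that each kit holds 1 library of each genotype. How many mice gave the tumors of a library is not given in the sources used here, and p-values over these libraries measure the spread between them.

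Helper T cells carry the coreceptor CD4 and direct other immune cells through cytokines and the costimulatory ligand encoded by Cd40lg. Regulatory T cells depend on the transcription factor Foxp3 and restrain immune responses, partly through the inhibitory receptor CTLA-4. In the gut wall regulatory T cells often carry Gata3, the interleukin-33 receptor encoded by Il1rl1, and the epidermal growth factor family ligand amphiregulin, encoded by Areg. Most T cells within the epithelium itself are instead cytotoxic, with granzymes and natural killer receptors, and many of these bear a gamma delta T cell receptor.

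The libraries held 44660305, 49009488, 98714025 and 128247396 UMIs. The mitochondrial limit removed 24.4% to 62.6% of the barcodes that passed the limits on UMIs and genes, most in ApcMin replicate 2. Lef1, the targeted gene (chr3:131110471-131224356, plus strand, GRCm38), was at 4.82, 10.3, 9.25 and 15.2 UMIs for every 1000000 of the class (CPM) in epithelial cells, and thus higher in the library labelled VApcMinL within both kits, against the labels. Whether the counted 3′ tags lie within the deleted stretch is not given in the sources used here. Xist, which is transcribed from the inactive X of female cells, had 0, 107, 0 and 41 UMIs in the members, and Y-linked genes had 14, 0, 9 and 21. In VApcMinL replicate 1, 20 of 21 members had an Xist UMI and 0 had a Y-linked one, and in VApcMinL replicate 2, 11 members had an Xist UMI, 18 a Y-linked one and 3 both. Both libraries labelled VApcMinL thus hold cells that go against the label male. The comparisons of members with cytotoxic lymphocytes and by Foxp3 are also given without these libraries. For the comparisons and shares between genotypes this is not possible, so sex and genotype cannot be told apart there. No barcode was shared between members of any pair of libraries, while 18 barcodes of all cells kept were shared by the kit 2 pair and 1 by ApcMin replicate 1 and VApcMinL replicate 2.

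The members were shallow cells. Their median UMI counts were 2101, 1833, 2377 and 1983, close to those of the cytotoxic lymphocytes of the same libraries (1967, 2191, 2904 and 2027) and far under those of the epithelial cells (13565 to 27440.5). The deepest member, a cell of VApcMinL replicate 2, had 18312 UMIs and gave 14.8% of the summed member UMIs of that library. A gene without a UMI in such a cell may be expressed all the same, and the counts of cells given here are of cells with a UMI.

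Among the genes of the rule, Il7r, which encodes the interleukin-7 receptor, was the most widely detected of the 4 lineage genes, in 90 of 126 members with 186 UMIs. The costimulatory receptor gene Icos followed with 67 members and 144 UMIs, and Foxp3 (chrX:7573644-7595245, plus strand) with 48 members and 73 UMIs. Cd4 had a UMI in 27 members, with 36 UMIs in all. The level of Il7r was 453, 397, 701.5 and 717 CPM, that of Icos 579.5, 480.2, 194 and 399, that of Foxp3 244, 188, 242 and 220.0, and that of Cd4 90.6, 83.5, 218 and 106. These values chose the cells and are a description. Foxp3 varied least between libraries, and Icos was lowest where Cd4 was highest, in ApcMin replicate 2. Cd3d was found in 112 members, Cd3g in 108 and Cd3e in 80.

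Many members met the rule narrowly. A single UMI of the 4 lineage genes admitted 28 members, 55 had only 1 of these genes, and 6 had a single UMI over the 3 CD3 genes. Il7r alone admitted 29 members and Icos alone 15. Just inside the depth limit, 9 members had 1000 to 1199 UMIs, and 2 barcodes with 800 to 999 UMIs met the rest of the rule. Between 0.1% and 0.2% of epithelial UMIs there were 22 members, and 4 cells lay between 0.2% and 0.3%. A single granzyme UMI kept out 20 further cells, more granzyme UMIs 60, a Cd8a UMI 14, and a UMI of C1qa, C1qb or Cd79a 9. In epithelial cells Foxp3 was found in 0% to 0.474% of the cells, Cd4 in 0.0534% to 0.652% and Cd3g in 0.641% to 5.51%. The median depths of the epithelial cells were 13565 to 27440.5 UMIs. Whether these UMIs came from free RNA or from a T cell caught under the same barcode was not tested.

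The name helper and regulatory T cells was carried by Foxp3 or Cd4 in 64 members and by neither in 62. Of the 64, 48 had Foxp3 (18, 6, 8 and 16 by library) and 16 had Cd4 without Foxp3. The genes of the T cell receptor constant chains are listed in the kit 3 tables alone. There, 58 of 61 members had a UMI of the alpha-beta receptor genes Trac, Trbc1 or Trbc2. These included all 24 members with Foxp3 and 24 of the 27 members with neither Cd4 nor Foxp3. Such a UMI was also in 35 of 39 cytotoxic lymphocytes of ApcMin replicate 2 and in 114 of 125 of VApcMinL replicate 2. The alpha-beta genes thus do not set the members apart from that class. Trac was found in 13 of 16 members of ApcMin replicate 2 and in 27 of 45 of VApcMinL replicate 2. It was in 61.5% and 45.6% of cytotoxic lymphocytes and in 2.03% and 2.80% of epithelial cells. Trdc, the delta chain constant gene, was found in 1 of 16 members (6.25%, exact 95% interval 0.158% to 30.2%) and in 2 of 45 (4.44%, 0.543% to 15.1%). All 3 Trdc-positive members were among those with neither Cd4 nor Foxp3. A UMI of any gamma or delta chain gene counted was in 1 of 16 and 5 of 45 members. Among cytotoxic lymphocytes it was in 35 of 39 and 105 of 125. In cytotoxic lymphocytes of the same libraries Trdc was in 59.0% (42.1% to 74.4%) and 55.2% (46.0% to 64.1%) of cells, so that the intervals of the 2 classes did not overlap in either library. These intervals cover counting error only.

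Markers of other cells were counted in the members beside those of T cells in general other than the genes of the rule. The latter summed to 1315 to 2709 CPM, with 3 of the 5 genes listed in the kit 2 tables and 5 in kit 3. The epithelial markers other than those of the rule summed to 842 to 1418 CPM in the members and to 872 to 952 CPM in cytotoxic lymphocytes. In VApcMinL replicate 2, where their sum was highest, 1 member gave all 51 UMIs of Olfm4. There 1 member each also gave 19 of 45 UMIs of Lgals4, 11 of 25 of Krt18 and 14 of 25 of Epcam, a gene of the rule. Whether a single cell gave all of these is not given here, and their part in the results was not tested. The B and plasma cell markers, with 5 of 8 genes listed in the kit 2 tables and 8 in kit 3, summed to 230 to 706 CPM. Of these, Ms4a1 was at 0 in the members of each library. Macrophage markers summed to 24.4 to 290 CPM with Csf1r, Adgre1 and Mpeg1 at 0 throughout, mast cell markers to 0 to 339, dendritic cell markers to 0 to 24.4 and fibroblast markers to 16.3 to 41.8. Endothelial markers summed to 24.2 to 62.6 CPM and red blood cell genes to 0 to 797, with 88 of the red blood cell UMIs in ApcMin replicate 1. The list for innate lymphoid cells, which share Gata3, Il1rl1, Areg and Klrg1 with gut regulatory T cells, summed to 855 to 1711 CPM with 5 to 7 of its 8 genes detected, against 181 to 1272 CPM in cytotoxic lymphocytes. In ApcMin replicate 1 it summed to 1711 CPM over 8 genes and the general T cell list to 1322 CPM over 3. These 2 sums are therefore not comparable. Its part in the results on these genes was not tested.

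The members were few in every library. They made up 1.57% of the cells kept in ApcMin replicate 1 (exact 95% interval 1.15% to 2.11%), 0.710% in VApcMinL replicate 1 (0.440% to 1.08%), 0.746% in ApcMin replicate 2 (0.427% to 1.21%) and 1.01% in VApcMinL replicate 2 (0.739% to 1.35%). The mean was 0.861% ± 0.214 (SD, n = 2) for VApcMinL and 1.16% ± 0.585 (SD, n = 2) for ApcMin, a difference of -0.299 percentage points with p = 0.667 in a two-sided exact permutation test over libraries. The groups overlapped, and the difference was -0.863 points in kit 2 and 0.266 in kit 3. With a floor of 2000 UMIs (-0.627 and -0.0814 points) or a mitochondrial limit of 10% (-0.856 and -0.210) both kits gave a lower share for VApcMinL. With 2 libraries against 2, the smallest p this test allows is 0.33. Without ApcMin replicate 1 the difference turned to 0.115.

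As a share of CD3-positive cells, helper and regulatory T cells were scarcest in VApcMinL replicate 1. They made up 20.5% (44 of 215 cells), 7.69% (21 of 273), 22.2% (16 of 72) and 20% (45 of 225) of these cells. Both libraries labelled ApcMin lay above both labelled VApcMinL, with means of 21.3% ± 1.24 and 13.8% ± 8.70 (SD, n = 2 each), a difference of -7.50 points and p = 0.33 in the exact permutation test, the smallest it allows. Under the full rule the distance rested on VApcMinL replicate 1, since it was -12.8 points in kit 2 and -2.22 in kit 3. Without that library it was -1.34 points. With a gate of Cd4 or Foxp3 only, the shares were 9.77%, 3.30%, 15.3% and 10.2%, and the groups overlapped. The difference was then -6.47 points in kit 2 and -5.06 in kit 3, with p = 0.667 in the exact permutation test. Fewer of these cells and poorer capture of their RNA cannot be told apart in such shares.

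**Figure D1:**
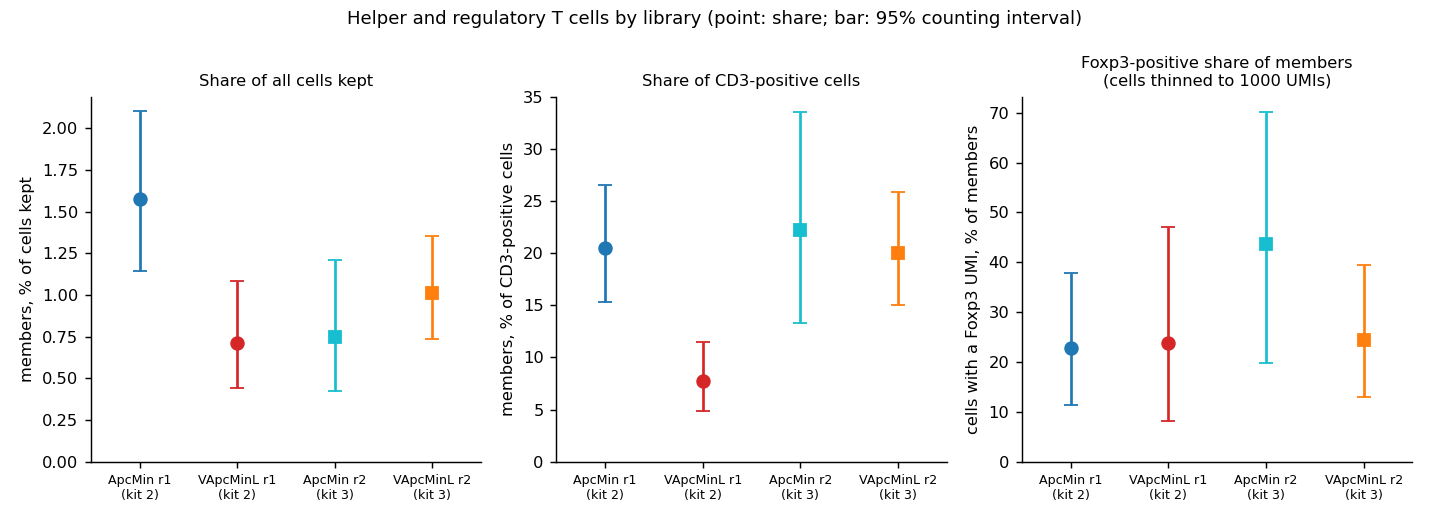
Share of helper and regulatory T cells among all cells kept (left, percent), among CD3-positive cells (middle, percent) and share of members with a Foxp3 UMI after thinning to 1000 UMIs (right, percent), each point 1 library and each bar its exact 95% counting interval. VApcMinL replicate 1 lies lowest in the middle panel at 7.69%, and ApcMin replicate 2 highest in the right panel at 43.8%.

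Foxp3-positive cells made up 40.9%, 28.6%, 50% and 35.6% of the members without thinning. As Foxp3 is a gene of the rule, these shares are a description, with no test. With each cell thinned to 1000 UMIs, so that depth was equal, the shares were 22.7% (10 of 44 cells), 23.8% (5 of 21), 43.8% (7 of 16) and 24.4% (11 of 45). The thinning was a single random draw, and the spread over draws was not measured. The library labelled ApcMin replicate 2 stood above the other libraries, which lay within 2 points of each other. The difference of VApcMinL from ApcMin was -9.11 points (24.1% ± 0.449 against 33.2% ± 14.9, SD, n = 2 each), with 1.08 in kit 2 and -19.3 in kit 3. Without thinning it was -13.4 points, with -12.3 in kit 2 and -14.4 in kit 3, and at a floor of 2000 UMIs it was -13.6 and -17.9 in the kits, so that the opposite signs were seen after thinning at the lower floor and not in these settings. With thinned cells the difference turned to 1.40 without ApcMin replicate 2.

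Lef1 itself was barely seen in the members. It had 3, 1, 0 and 4 UMIs, in 7 members in all, which corresponds to 27.2, 20.9, 0 and 32.6 CPM. After thinning, 1 of 44, 1 of 21, 0 of 16 and 2 of 45 members had a Lef1 UMI, and the 0 of 16 allows a share of up to 18.8%. The difference of VApcMinL from ApcMin was 3.47 points (4.60% ± 0.224 against 1.14% ± 1.61, SD, n = 2 each, exact permutation p = 0.33). Lef1 was found in 6.41% to 22.9% of epithelial cells, at their greater depth. No difference between genotypes was detectable in the members at this depth.

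The cytokine genes that define helper T cell types were nearly silent. Il17a was found in 2 members and Il22 in 4, both cytokines of type 17 cells, while Il17f was in 0 of 126, which allows a share of up to 2.38%. Ifng, the type 1 cytokine, was in 2 members, Il4 and Il13 of type 2 cells in 1 each, Il5 in 0, and Il21 of follicular helper cells in 1. The lineage factors Tbx21 and Bcl6 were in 2 and 1 members. Of the 16 Il22 UMIs, 6 came from 1 cell of ApcMin replicate 1 and 8 from 1 cell of VApcMinL replicate 2. Il10, the suppressive cytokine, was in 7 members with 24 UMIs. The members could therefore not be sorted into helper types by cytokines at this depth.

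Several receptors and factors of regulatory T cells had UMIs in many members, and others in few. Ikzf2, the gene of the transcription factor Helios, was in 89 of 126 members, Tnfrsf4 (OX40) in 76, Tnfrsf18 (GITR) in 74, Capg, an actin capping protein, in 72 and Ctla4 in 71. Gata3 was in 56, Areg in 30, Il2ra (CD25) in 26 and Il1rl1 in 24. The inhibitory receptor gene Tigit was in 4 and the factor gene Prdm1 in 9. In epithelial cells Ctla4 was found in 0.107% to 2.31% of cells and Tnfrsf4 in 0.722% to 2.55%, far under the shares in the members in spite of the greater depth. For Areg the epithelial share of 31.0% to 36.2% was above the shares in the members (9.52% to 29.5%), so Areg in a member cannot be told apart from free RNA by its share. In CPM, which does not grow with depth, Areg stood at 670, 125, 169 and 269 in the members and at 45.5 to 79.9 in epithelial cells.

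Genes were also counted by cell in the members with and without Foxp3. As a description over cells, which are not replicates, and with no test of the difference, Ikzf2 had a UMI in 46 of the 48 members with Foxp3 and in 43 of the 78 without, Tnfrsf4 in 38 and 38, Ctla4 in 37 and 34, and Gata3 in 28 and 28. A second set of genes ran the other way. Tcf7, a factor of naive and memory T cells that belongs to the same TCF/LEF family as Lef1, was in 1 of the 48 and in 15 of the 78. Cd40lg, the helper ligand for B cells and dendritic cells, was in 0 of 48 and 13 of 78, and the chemokine receptor gene Cxcr3 in 0 and 11. Of the 13 members with Cd40lg, 2 had Cd4 and 11 had neither Cd4 nor Foxp3. In epithelial cells Cd40lg was in 0.0252% to 0.119% of cells. Tmem176b, found in type 17 cells among others, was in 0 members with Foxp3, 2 with Cd4 alone and 14 with neither. The median depth was 2164.5 UMIs in members with Foxp3, 2348 in those with Cd4 alone and 1917.5 in those with neither.

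**Figure D2:**
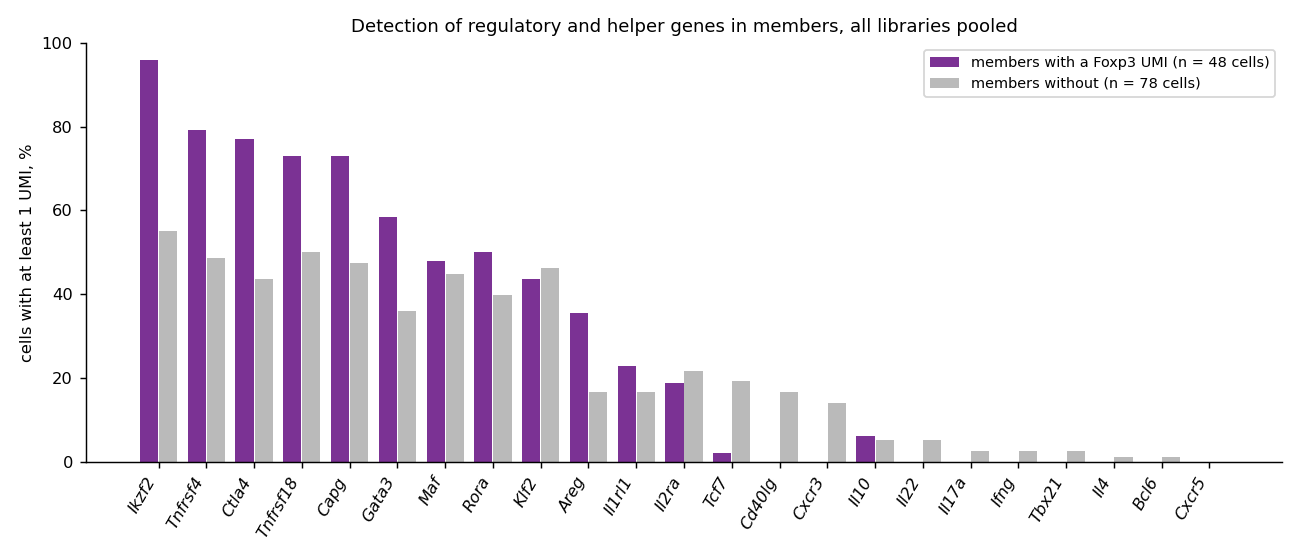
Percent of members with at least 1 UMI of 23 genes of regulatory and helper T cells, all libraries pooled, for the 48 members with a Foxp3 UMI (purple) and the 78 without (grey). Ikzf2 reaches 95.8% of the members with Foxp3, and Cd40lg and Cxcr3 have a bar only for members without Foxp3.

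To compare the Foxp3-positive with the Foxp3-negative members over libraries, UMIs were summed for each within every library and compared by the quasi-likelihood method of edgeR with the library as a block. Of the 504 genes tested, 1 was called (0.198%), that is, had a Benjamini-Hochberg adjusted p under 0.05, and the unadjusted p of 56 was under 0.05 (19 in DESeq2, which called 0). The called gene was Ikzf2 (chr1:69531214-69687245, minus strand). Its level was 1546, 1555, 2208 and 1331 CPM in members with Foxp3 and 775, 863, 731 and 239 CPM in members without. All 4 Foxp3-positive sums lay above all Foxp3-negative ones, and the log2 difference was 1.40 (SE 0.27, adjusted p = 0.0354 by edgeR's quasi-likelihood method, Benjamini-Hochberg adjusted). The adjusted p was 0.169 without ApcMin replicate 2, 0.289 without VApcMinL replicate 2, 0.065 in DESeq2, 0.216 at a floor of 2000 UMIs, 0.199 with no filter on low counts and 0.813 with no library block, all above the threshold, and the difference stayed between 1.10 and 1.81 in every setting tried. In the libraries labelled ApcMin alone it was 1.15 (adjusted p = 0.00541, edgeR).

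Other regulatory T cell genes had higher levels with Foxp3 in most libraries but were not called. Tnfrsf4 stood at 2524, 1244, 1127 and 998 CPM with Foxp3 and at 1011, 1072, 209 and 514 CPM without (log2 difference 1.05, SE 0.28, adjusted p = 0.144 by edgeR with Benjamini-Hochberg adjustment). It was higher with Foxp3 in each library, although the 2 sets of values overlapped between libraries. Tnfrsf9, the gene of the costimulatory receptor 4-1BB, was at 1174, 415, 721 and 333 CPM with Foxp3 and at 236, 601, 209 and 95.6 CPM without, higher in 3 of 4 libraries (log2 difference 1.45, SE 0.37, edgeR adjusted p = 0.144). Ctla4 was at 802, 933, 586 and 922 CPM against 489, 392, 522 and 370.5 CPM, and the lowest value with Foxp3 lay above the highest without (log2 difference 0.83, SE 0.28, edgeR adjusted p = 0.193). Both of these values were of ApcMin replicate 2, from 13 and 10 UMIs, and were nearly level there (log2 difference 0.016). Without the library VApcMinL replicate 1, Tnfrsf4 and Tnfrsf9 were both called by edgeR (adjusted p = 0.0306 and 0.00608), and in the libraries labelled ApcMin alone likewise (adjusted p = 7.66e-05 and 5.16e-05), while neither was called in any other setting. A single member gave 28 of 74, 12 of 27, 8 of 20 and 8 of 21 Tnfrsf9 UMIs in the 4 libraries. For Tnfrsf4 a single member gave 44 of 189 UMIs in ApcMin replicate 1 and 11 of 29 in ApcMin replicate 2. The part of these cells in the calls was not tested.

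Of the 20 regulatory T cell genes listed, 7 had enough UMIs for this test, 1 was called higher and 0 lower, with a median log2 difference of 1.05 against -0.027 over the 504 genes. The others of the 7 were Capg (0.90, edgeR adjusted p = 0.157), Tnfrsf18 (0.83) and Areg (1.10), both with an adjusted p of 0.193. Gata3, listed with type 2 helper genes, differed by 1.18 and Klrg1, an inhibitory receptor gene of differentiated T cells, by 0.88, both with an edgeR adjusted p of 0.193. Gata3 was higher with Foxp3 in 3 of 4 libraries, with 313, 1244, 406 and 589 CPM against 371, 340, 157 and 108 CPM. Without ApcMin replicate 1, where it was not higher, Gata3 was called (log2 difference 1.96, edgeR adjusted p = 0.0175), but the difference was 0.76 (adjusted p = 0.737) without VApcMinL replicate 2 and 0.15 (adjusted p = 0.996) in the libraries labelled ApcMin alone. Klf2, a factor that keeps T cells in circulation, went the other way in 3 of 4 libraries, at 802, 518, 361 and 230 CPM against 1433, 418, 574 and 394 CPM (log2 difference -0.71, edgeR adjusted p = 0.33). None of the 5 T cell receptor genes, 7 residency genes or 7 immediate early genes tested was called.

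**Figure D3:**
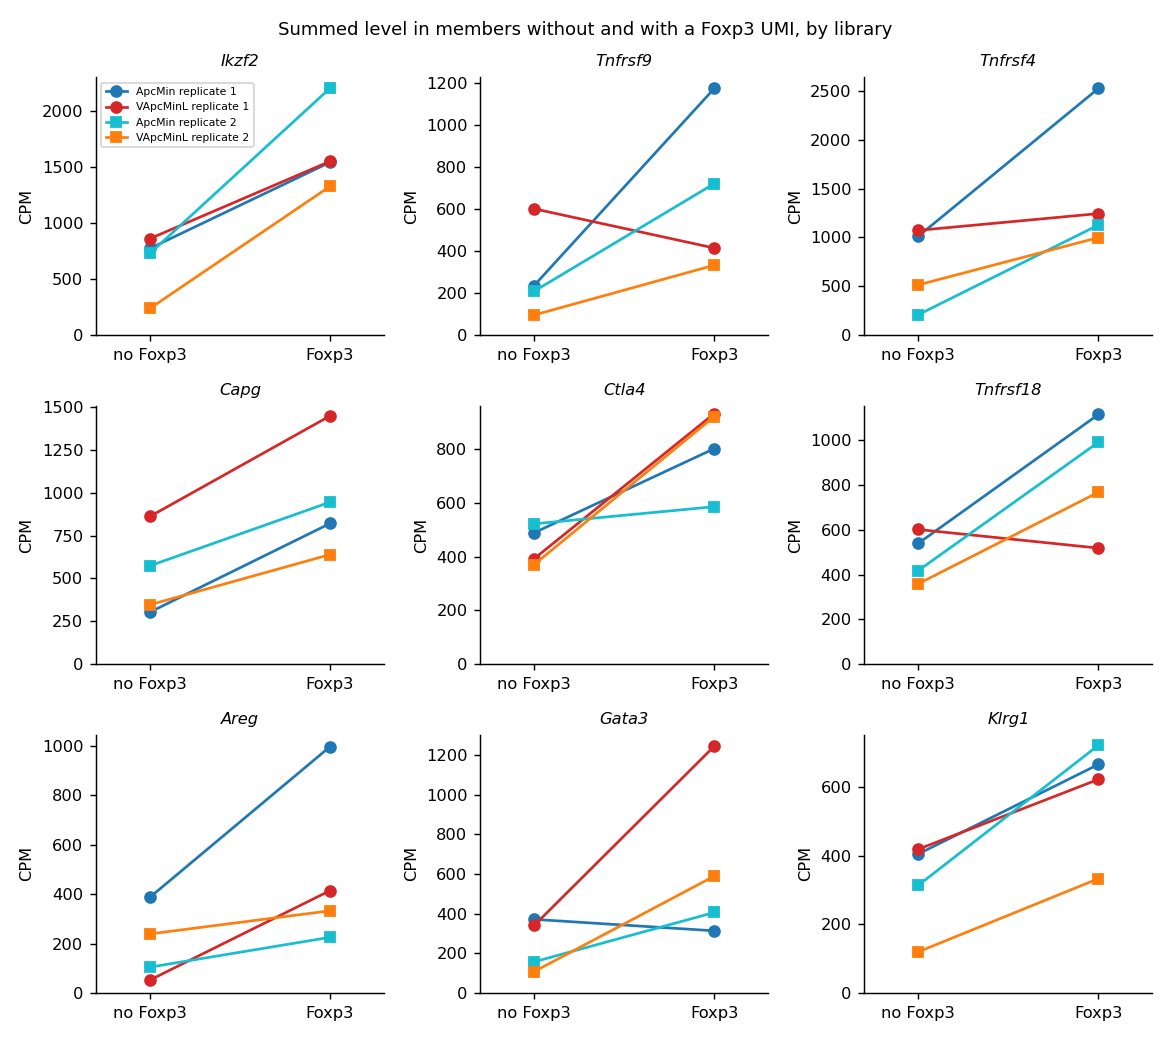
Summed level in CPM of 9 genes in members without (left of each panel) and with (right) a Foxp3 UMI, each line 1 library. Every line rises for Ikzf2, Tnfrsf4, Capg, Ctla4, Areg and Klrg1, while 1 line each falls for Tnfrsf9, Tnfrsf18 and Gata3.

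The next comparison asked which genes beside those of the rule set the members apart from cytotoxic lymphocytes of the same tumors. The 418 cytotoxic lymphocytes (108, 146, 39 and 125 cells) were chosen by a CD3 gene and a granzyme UMI, without Cd4 or Foxp3. The limits on epithelial, macrophage and B cell genes were the same as for members. The other 241 CD3-positive cells were not part of this comparison. The 16 genes of the rule were left out. Of 1807 genes tested, edgeR called 294 (16.3%), with 158 higher in the members (8.74%) and 136 lower (7.53%). The count was 178 with DESeq2, 114 of 573 genes with cells thinned to 1000 UMIs and 137 in the libraries labelled ApcMin alone. The classes were drawn by granzyme and lineage gene UMIs, and genes carried along with these were in part chosen by that.

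The T cell surface genes Cd2 and Cd28 were among the most raised. Cd2 (chr3:101275899-101287939, minus strand), an adhesion and costimulation receptor, stood at 498, 438, 484 and 334 CPM in the members and at 45.7, 41.2, 7.80 and 6.84 CPM in cytotoxic lymphocytes. The ranges were far apart in every library, and the log2 difference was 3.90 (SE 0.32, adjusted p = 6.34e-10 by edgeR with Benjamini-Hochberg adjustment). Cd28, the main costimulatory receptor of T cells, had 525, 250.5, 194 and 106 CPM against 66.4, 19.2, 7.80 and 17.1 CPM (log2 difference 3.09, SE 0.33, edgeR adjusted p = 5.38e-08). Of the 16 genes listed for the T cell receptor and its signaling, 12 were tested, 6 were higher and 1 was lower, with a median of 0.63 against 0.0027 over all genes tested. Cd6 (2.57), Thy1 (1.83), Bcl11b (0.84) and the adaptor gene Lat (0.77) were also higher, while the kinase gene Zap70 was lower (-1.01, edgeR adjusted p = 0.0247). Bcl11b, Lat and Zap70 were not called in the libraries labelled ApcMin alone, and Bcl11b lost its call whichever library was left out.

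Of the 20 regulatory T cell genes, 9 were tested, 7 were higher in the members and 0 were lower, with a median log2 difference of 2.17. Tnfrsf4 (chr4:156013843-156016612, plus strand) stood at 1711, 1107, 701.5 and 668 CPM in the members and at 162, 115, 0 and 41.1 CPM in cytotoxic lymphocytes (log2 difference 3.61, SE 0.26, edgeR adjusted p = 3.51e-11). It was higher in kit 2 than in kit 3 in both classes. Ctla4 (chr1:60887000-60915832, plus strand) was nearly level across the members, with 634, 501, 556 and 546 CPM, against 137, 96.0, 0 and 95.8 CPM in cytotoxic lymphocytes (log2 difference 2.56, SE 0.29, edgeR adjusted p = 1.14e-07). Areg, at 670, 125, 169 and 269 CPM against 91.3, 24.7, 7.80 and 10.3 CPM, was higher in the members of each library, with its highest value in ApcMin replicate 1 (log2 difference 3.13, SE 0.33, edgeR adjusted p = 5.5e-08). Capg (2.48), Tnfrsf18 (2.17), Batf, a factor of effector regulatory T cells (1.65), and Tnfrsf9 (1.24) were called as well. All 7 were also called in the libraries labelled ApcMin alone, without the libraries that go against the label male. Batf was not called without ApcMin replicate 1 (1.51, edgeR adjusted p = 0.061).

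Ikzf2 did not separate the classes. It stood at 1132, 1002, 1524 and 587 CPM in the members and at 901, 1010, 624 and 571 CPM in cytotoxic lymphocytes (log2 difference 0.29, SE 0.18, edgeR adjusted p = 0.336), in 57.8% to 87.5% of members and 62.4% to 84.2% of cytotoxic lymphocytes. The gene that was higher in Foxp3-positive than in Foxp3-negative members was thus also common in the cytotoxic class. Il1rl1 was at 99.6, 104, 169 and 32.6 CPM in the members and at 8.30, 8.23, 1131 and 58.2 CPM in cytotoxic lymphocytes, where 1 cell of ApcMin replicate 2 held 145 UMIs. Its log2 difference was -0.70 (edgeR adjusted p = 0.511) and turned to 1.46 without that library and to 0.81 in DESeq2.

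Transcription factors of helper lineages were raised although their cytokines were scarce. Gata3 (chr2:9857078-9890034, minus strand), the factor of type 2 cells and of many gut regulatory T cells, had 344, 522, 290.3 and 261 CPM in the members and 70.6, 54.9, 54.6 and 47.9 CPM in cytotoxic lymphocytes (log2 difference 2.52, SE 0.27, edgeR adjusted p = 6e-08). Every member value lay above every cytotoxic value. Maf, which drives Il10 in T cells, had 244, 292, 629 and 293 CPM against 95.5, 24.7, 62.4 and 20.5 CPM (2.69, SE 0.34, edgeR adjusted p = 6.76e-07), and Rora, a factor of type 17 cells and innate lymphoid cells, 453, 188, 435 and 310 CPM against 104, 52.1, 7.80 and 54.8 CPM (2.41, SE 0.31, edgeR adjusted p = 1.22e-06). Neither set of values overlapped between the classes. Of 12 type 17 genes listed, 5 were tested, these 2 were higher and 0 were lower, with a median of -0.70, so the list as a whole did not lean upward. Of the 8 type 1 and 8 follicular helper genes, 1 each was tested and 0 were called. Among the 4 innate lymphoid markers tested, Areg, Gata3 and Klrg1 were higher.

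Genes of location and recirculation were split. Of 14 residency and activation genes, 12 were tested, 4 were higher and 4 lower, with a median of 0.21. Itga4, the integrin chain used for entry into the gut wall, was higher (log2 difference 2.05, edgeR adjusted p = 1.92e-06), and so was the gut homing receptor gene Ccr9 (1.27, edgeR adjusted p = 0.000463), although its levels in VApcMinL replicate 2 were nearly equal (187 and 185 CPM). Itgae, the integrin chain that holds T cells in the epithelium, was lower, with 36.2, 146, 145 and 163 CPM against 282, 373, 671 and 578 CPM (log2 difference -2.08, SE 0.25, edgeR adjusted p = 4.21e-07). Each member value was under each cytotoxic one. Runx3 (-1.52), which sustains the cytotoxic program, and Rgs1 (-1.40), a brake on chemokine signaling, were also lower, but neither was called in the libraries labelled ApcMin alone. Klf2 was the only 1 of 9 naive and recirculating genes tested and was higher, at 1141, 438, 459.6 and 342 CPM against 319.6, 24.7, 54.6 and 82.1 CPM (2.32, SE 0.26, edgeR adjusted p = 1.28e-07).

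**Figure D4:**
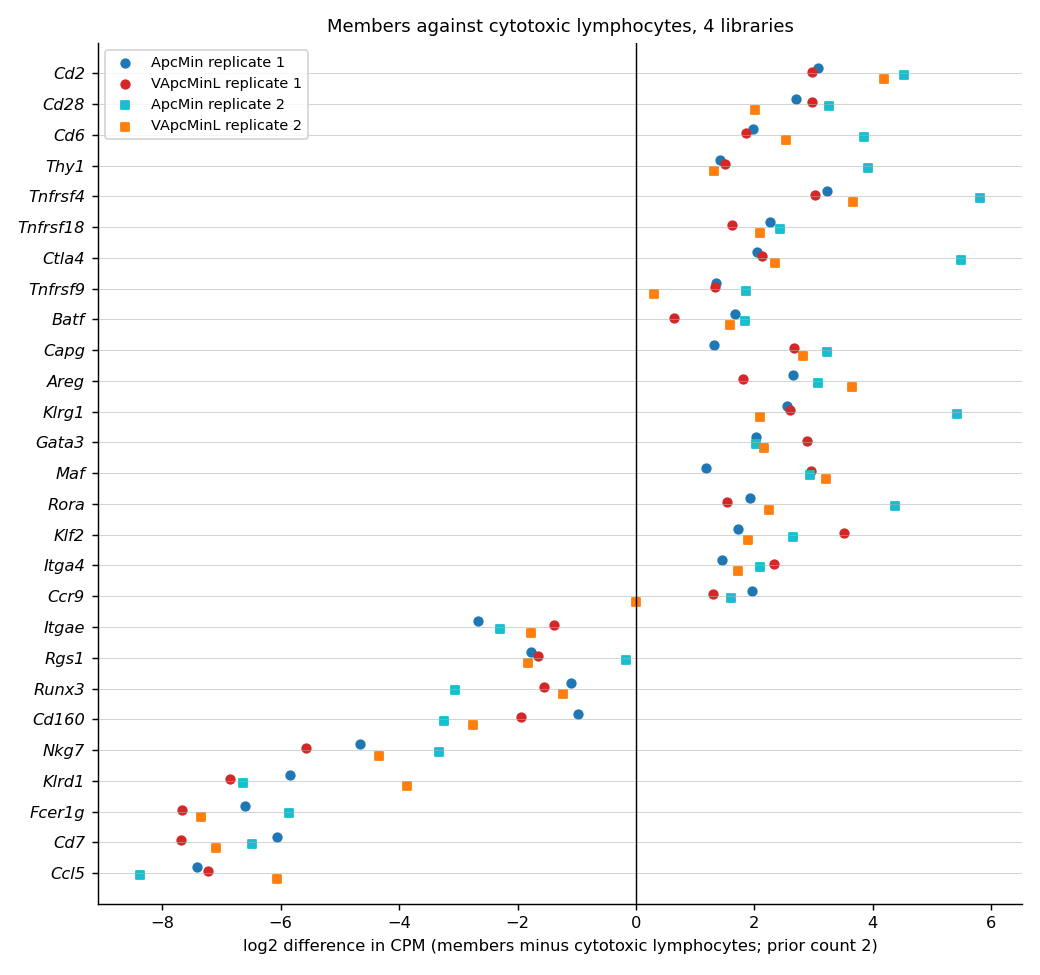
Log2 difference in CPM of members minus cytotoxic lymphocytes (prior count 2) for 27 genes, each point 1 library. The genes from Cd2 down to Itga4 lie right of 0 in all 4 libraries, Ccr9 lies at 0 in VApcMinL replicate 2, and the genes from Itgae to Ccl5 lie left of 0 in all 4.

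Cytotoxic genes other than those of the rule were lower in the members. Members had no UMI of Gzma, Gzmb or Cd8a, and each cell of the other class had a granzyme UMI. Lower levels of genes expressed along with granzymes were thus in part fixed by the choice of cells. The calls, ratios and p-value of this paragraph describe that choice as much as the cells. All 8 of the 13 listed that could be tested were called. Ccl5 (chr11:83525778-83530518, minus strand), a chemokine of cytotoxic T cells, stood at 208, 397, 96.8 and 432 CPM in the members and at 35724, 56483, 32204 and 29193 CPM in cytotoxic lymphocytes (log2 difference -7.04, SE 0.25, edgeR adjusted p = 9.46e-18). Cd7 (-7.15) and the natural killer receptor gene Klrd1 (-5.82) were of like size, as was Tyrobp (-6.73), a signaling adaptor of natural killer receptors. Fcer1g, the adaptor often used by innate-like T cells, had 2 UMIs in all members together, a ratio of 336 (exact 95% interval 92.9 to 2775) in favor of cytotoxic lymphocytes. Ccl4 had 2 UMIs as well (ratio 144, 39.7 to 1190), Lag3 3 (27.4, 9.29 to 134) and Lat2 1 (65.1, 11.5 to 2582). These ratios pool UMIs over all cells and libraries, and their intervals cover counting error only. Cd244, Ccl3 and Cd200r2 had 0 UMIs in the members and were at least 29.9-fold, 20.4-fold and 18.5-fold higher in cytotoxic lymphocytes, taken against a floor of 3 counts over all members.

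The largest rise among the called genes that the naming rule admits was that of S100a4, a calcium-binding protein of effector and memory T cells. It stood at 353, 438, 363 and 440.0 CPM in the members against 45.7, 11.0, 0 and 23.95 CPM (log2 difference 4.08, SE 0.36, edgeR adjusted p = 1.61e-09). The other large rises beside those already named were Penk (3.71), the proenkephalin gene, Ctla2a (3.44), a cysteine protease inhibitor, Gpr183 (3.39), an oxysterol receptor that guides lymphocyte migration, Klrg1 (3.00) and Mif4gd (2.84). Penk rested on few cells, as 1 member gave 50% to 80% of its UMIs in each library. Ctla2a was at 380.3, 939.5, 1379 and 1084 CPM in the members and at 60.4 to 95.8 CPM in cytotoxic lymphocytes.

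Several immediate early genes, which respond quickly to stimulation, were also higher in the members. Of 12 tested, 5 were higher and 1 lower, with a median of 0.53. Dusp1 had 2065, 1065, 774 and 701 CPM against 888, 258, 85.8 and 332 CPM (log2 difference 1.54, SE 0.21, edgeR adjusted p = 2.9e-06). Of the 3 proliferation genes and 6 epithelial markers tested, edgeR called 0, with 475 of all 1807 genes at an unadjusted p under 0.05 and 312 in DESeq2. Jchain, a plasma cell gene, was lower (-1.19, edgeR adjusted p = 0.00517), at 634, 188, 24.2 and 16.3 CPM against 1830, 140, 46.8 and 37.6 CPM, though higher in VApcMinL replicate 1. Its level in both classes was highest in ApcMin replicate 1.

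The last comparison asked whether the members differed between tumors labelled VApcMinL and ApcMin. Only the libraries labelled VApcMinL hold members with Xist, so sex and genotype cannot be told apart in it. Of 1159 genes tested with the kit as a block, edgeR called 1 (0.0863%), and the unadjusted p of 38 was under 0.05. The called gene was Xist (chrX:103460366-103483254, minus strand), with 0, 2234, 0 and 334 CPM in the members. It was at least 43.9-fold higher in the members labelled VApcMinL (148 of 170636 UMIs against a floor of 3 counts in 151773, edgeR adjusted p = 6.29e-19). It follows the cells that go against the label male and was called in neither DESeq2, which called 0 genes, nor without ApcMin replicate 1. When a single library was left out the count ranged from 0 to 11, with 0 without ApcMin replicate 1, 2 without VApcMinL replicate 1, 11 without ApcMin replicate 2 and 4 without VApcMinL replicate 2.

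The regulatory and helper genes were not called between genotypes. Of 7 regulatory T cell genes tested 0 were called, with a median log2 difference of -0.49 against 0.018 over all genes tested. Tnfrsf4 differed by -0.35 (SE 0.44), with -0.61 in kit 2 and -0.03 in kit 3, and Ctla4 at -0.16 (SE 0.42), with -0.32 and 0.01. Ikzf2 differed by -0.75 (SE 0.44), with 1132 against 1002 CPM in kit 2 and 1524 against 587 CPM in kit 3. Areg went in opposite directions, at -2.20 in kit 2 and 0.64 in kit 3. All of these had an edgeR adjusted p of 0.999, so modest differences between genotypes were not detectable with these libraries.

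None of 11 T cell receptor genes (median -0.33), 11 residency genes (-0.30) or 12 immediate early genes (-0.59) was called. The 2 proliferation genes tested had a median of 1.97 and were not called. Stmn1, which is 1 of them, had 72.4, 230, 24.2 and 220.0 CPM, higher in both libraries labelled VApcMinL (log2 difference 2.07, SE 0.70, edgeR adjusted p = 0.478). Of its 11 UMIs in VApcMinL replicate 1, 10 came from 1 cell, and of its 27 in VApcMinL replicate 2 a single cell gave 10. When only members with Cd4 or Foxp3 were used, 3 genes were called, with Xist and Stmn1 higher and the heat shock gene Hspa1a lower in those labelled VApcMinL. The log2 difference of Hspa1a turned to 2.41 over all members without ApcMin replicate 2. Ccl5 had 208, 397, 96.8 and 432 CPM (1.41, edgeR adjusted p = 0.553). Ube2c, a mitosis gene named after its values were seen, was at 27.2, 209, 0 and 253 CPM (3.52, edgeR adjusted p = 0.0695). It was called in the setting without the deepest member (3.55, edgeR adjusted p = 0.0195), and its difference was 3.07 without ApcMin replicate 2. How many cells gave the Ube2c UMIs is not given here. In VApcMinL replicate 1 a single member gave all 10 UMIs of Birc5 and a single member 13 of 15 of Top2a, other genes of dividing cells.

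**Figure D5:**
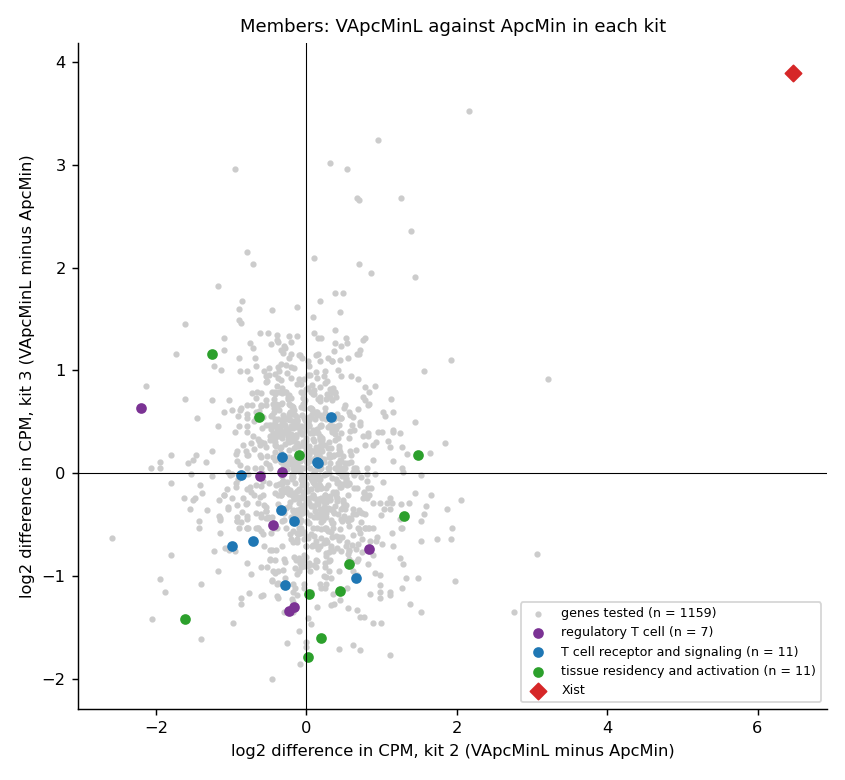
Log2 difference in CPM (VApcMinL minus ApcMin) of the 1159 genes tested in the members, kit 2 on the horizontal and kit 3 on the vertical axis, with 3 gene lists and Xist in color. Xist lies alone at the upper right (6.48 and 3.90), and the listed genes lie on both sides of 0 in both kits.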

How the data were processed

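Deposited gene by barcode matrices of UMI counts were used for all 4 libraries. Per the labels, the authors aligned reads to mm10 (GRCm38) with Cell Ranger 2.1.1 and used Seurat 3.1.1, while the headers of the kit 3 matrices name Cell Ranger 3.1.0. The counts were as deposited, without normalization, for 737280 or 6794880 barcodes. Gene tables list 27998 genes in kit 2 and 31053 in kit 3, and the 27514 in all of them were used. The rest held 0.200% to 0.561% of UMIs. Positions are from GENCODE annotation of GRCm38.

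Cells were kept and members chosen by the limits given with the results (Python 3.11.15, numpy 2.4.6, pandas 2.3.3, scipy 1.17.1). Members, gene lists and tests were chosen with earlier results of these data known. Cells are not replicates, so UMIs were summed by library and class and tested with edgeR 4.0.16 in R 4.3.3 (TMM scaling, filterByExpr with min.count 10, quasi-likelihood test, Benjamini-Hochberg adjustment over the tested genes without the 16 genes of the rule, threshold 0.05). The kit was a block between genotypes and the library within them. SEs are of log2 differences. CPM are UMIs scaled to 1000000 over the shared genes of the class and library. Shares were compared by two-sided exact permutation tests over libraries (no p is given for the Foxp3-positive share, since Foxp3 is a gene of the rule), with exact (Clopper-Pearson) 95% intervals. Beside a count of 0 the limit is 3 counts, and both cover counting error only. Doublets were kept. Scrublet in scanpy 1.11.5, at an expected rate of 0.8% for every 1000 cells, removed 328 cells and 0 members as an alternative. The edgeR step was tested on simulated data.

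Genes named are those of the lists and, for each test, up to 10 rises and 10 falls, the largest called log2 differences whose direction held in every pair or library and whose higher group reached 50 CPM. Alternatives were DESeq2 1.42.0, RLE scaling, no filter, a floor of 2000 UMIs, a mitochondrial limit of 10%, no Scrublet doublets, no block, a gate of Cd4 or Foxp3 only, thinned cells and each library left out. Leaving out the deepest member and using the ApcMin libraries alone were added after the data had been seen. The labels tie the replicate number to the kit, and same-numbered libraries were therefore treated as paired. Over 1168 genes, not independent replicates, libraries sharing a kit deviated from their group averages together (r = 0.39).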

Additional observations from a re-analysis of the deposited data

Results flagged for a closer look

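The share of helper and regulatory T cells among all cells kept moved in opposite directions in the 2 kits, with a difference of VApcMinL from ApcMin of -0.863 percentage points in kit 2 and 0.266 in kit 3. Both kits gave a lower share for VApcMinL at a floor of 2000 UMIs (-0.627 and -0.0814) and at a mitochondrial limit of 10% (-0.856 and -0.210). The share of Foxp3-positive cells among them, after a single random thinning, did likewise, with 1.08 points in kit 2 and -19.3 in kit 3. It was lower for VApcMinL in both kits without thinning (-12.3 and -14.4) and at the floor of 2000 UMIs (-13.6 and -17.9). Each kit has 1 library a genotype, so neither difference between kits was tested.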

How the results depend on the processing

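The alternatives without the deepest member and in the ApcMin libraries alone were added after the data had been seen. Between genotypes 1 gene was called, against 0 in DESeq2 (4 genes at an unadjusted p under 0.05), 3 with a gate of Cd4 or Foxp3 only, 2 without the deepest member and 0 to 11 with a library left out (0 without ApcMin replicate 1, 2 without VApcMinL replicate 1, 11 without ApcMin replicate 2, 4 without VApcMinL replicate 2). Between the members and cytotoxic lymphocytes 294 were called, against 178 in DESeq2, 535 with no filter (183 higher, 352 lower), 172 at a floor of 2000 UMIs, 182 with a gate of Cd4 or Foxp3 only, 114 with thinned cells, where fewer genes were tested, 137 in the ApcMin libraries alone and 210 to 309 with a library left out. Between Foxp3-positive and Foxp3-negative members 1 was called, against 0 in DESeq2, 6 with no filter, 0 at the floor of 2000 UMIs, 8 in the ApcMin libraries alone, and with a library left out 7 without ApcMin replicate 1, 6 without VApcMinL replicate 1, 0 without ApcMin replicate 2 and 0 without VApcMinL replicate 2. Without the kit or library block, which pairs libraries or classes, the counts were 0, 154 and 0. The cause of these moves was not tested. Thinned cells were not run for the Foxp3 comparison, nor the gate of Cd4 or Foxp3 for it or for the Foxp3 and Lef1 shares.

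The share of all cells ranged from -0.712 to 0.115 points with a library left out and turned without ApcMin replicate 1 (0.115). With a library left out, the share of CD3-positive cells ranged from -13.7 to -1.34. With a gate of Cd4 or Foxp3 only it was -6.47 in kit 2 and -5.06 in kit 3. The Foxp3-positive share ranged from -19.6 to 1.40 with a library left out, turning without ApcMin replicate 2 (1.40). The Lef1-positive share ranged from 2.33 to 4.60 in thinned cells, and without thinning it was -2.06 in kit 2 and 6.67 in kit 3. The log2 difference of Il1rl1 from cytotoxic lymphocytes, -0.70, turned in DESeq2 (0.81) and ranged from -1.65 to 1.46 with a library left out, turning without ApcMin replicate 2 (1.46). For the 57 genes followed in that comparison, 736 of the values under an alternative kept direction and call, 80 kept direction but lost the call and 2 turned. Depth is 1 limit: 126 shallow cells leave most cytokine and checkpoint genes at or near 0, and 2 libraries a genotype allow no exact p under 0.33.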

Other observations

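The other CD3-positive cells, 241 in all with neither membership nor a place among the cytotoxic lymphocytes, lay between those classes in several genes. Cd2 had a UMI in 13.2% to 41.2% of them, against 47.6% to 72.7% of the members and 0.80% to 8.33% of cytotoxic lymphocytes. Trdc was found in 23.5% and 38.2% of them in the kit 3 libraries. These shares were not tested and the cells were not thinned.

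Top2a, a gene of dividing cells, had a UMI in 21 members, 5 of the 48 with Foxp3 and 16 of the 78 without. In VApcMinL replicate 1, 1 member gave 86.7% of the 15 Top2a UMIs. In epithelial cells, which are much deeper, the share was 25.2% to 51.2%.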
